A study of Mus musculus with 6 samples.

Results

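LIM homeobox genes and the homeobox gene Hlx were examined in methylated DNA captured from mouse heart ventricle at postnatal day 1 (P1) and postnatal day 14 (P14). The members were 10 genes, Lhx1, Lhx2, Lhx3, Lhx4, Lhx5, Lhx6, Lhx9, Isl1, Isl2 and Hlx, and every region carrying one of these symbols was taken. This gave 13 of the 213957 distinct regions, lying at Lhx6 (5 regions), Lhx4 (4), Lhx1 (2), Lhx2 (1) and Hlx (1). Lhx3, Lhx5, Lhx9, Isl1 and Isl2 had no region under their names. Regions were chosen by symbol alone, but the gene set was proposed with the P14 against P1 change in reads at these regions already known, so it counts as selected on that change. Changes between ages are therefore described, with standard errors and counts, and carry no test of their own.

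There were 3 libraries at P1 and 3 at P14, all from untreated male C57BL/6 mice. The protocol describes ventricles with the septum intact and the atria removed, while the sample labels name the left ventricle. Sonicated DNA was enriched for methylated CpG sites with a methyl-CpG binding domain (MBD-seq), so read density reflects how many methylated CpGs a fragment holds and how well each library was captured, not a methylation level per site. The series calls the libraries biological replicates, and whether each came from a single animal is not given in the sources used here. No RNA is measured, so marker genes cannot check the tissue, and in bulk tissue a change within cells and a change in the mix of cells cannot be told apart.

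LIM homeodomain proteins carry a pair of zinc-binding LIM domains beside a DNA-binding homeodomain, and work in complexes held together by LDB cofactors. They set cell identity in the embryo. Isl1 marks progenitors of the second heart field and later the sinoatrial node, Isl2 acts in motor neurons, Lhx3 and Lhx4 in pituitary and motor neurons, Lhx1 in head formation and kidney, Lhx2 in eye, forebrain and hair follicle, Lhx5 in forebrain, Lhx6 in cortical interneurons and oral mesenchyme, and Lhx9 in the gonad. Hlx is no LIM protein: it has a homeodomain of the H2.0 type and is needed in the mesenchyme of gut and liver. Promoters of such developmental genes often lie in CpG-rich DNA, where methylation is usually low.

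Libraries held 16284216 to 21512072 reads over distinct regions. The table tiles the chromosomes as short peaks, where methylated DNA was enriched, alternating with long stretches between them. The share of reads in peaks was 11.55% to 13.36% at P1, whereas P14 replicates 1 to 3 had 31.29%, 18.37% and 16.96%. P14 replicate 1 thus stood apart in capture, and the changes of the tested members are given below with and without it. P1 replicate 1 had 2392 peaks without a read, against 30 and 37 in P1 replicates 2 and 3. Since every P14 share lay above every P1 share, differences in capture and in age cannot be told apart. Unless said otherwise, values are CPM, reads relative to all reads in peaks of the library, scaled by the trimmed mean of M values (TMM), and log2 changes are P14 against P1 in edgeR's quasi-likelihood fit over 96761 peaks. All coordinates are GRCm38.

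No peak touched a listed promoter window of these genes. RefSeq lists 13 promoter windows for 9 of the members (300 bases, from 250 before to 50 after a start site; Lhx5 has no entry), and 0 of the 13 touched a peak, beside 7.6% of all 32851 windows. All 13 lay in stretches between peaks. With only 13 windows, several of them of the same gene, nothing is read from the difference to the share of all windows. CpG counts ranged from 6 in the Lhx9 window to 37 in that of Isl1, where the median over all windows is 7. The 3 windows at the 5′ border of Hlx, Isl1 and Lhx1 are shown for the contrast in CpG content, as the 250 bases upstream of the start site, minus strand, 5′ to 3′, from RefSeq (GRCm38.p6). Capitals mark CpG sites. The Hlx stretch (chr1:184732494-184732743) holds 11, the Isl1 stretch (chr13:116309689-116309938) 33 and the Lhx1 stretch (chr11:84525535-84525784) 26.
Hlx: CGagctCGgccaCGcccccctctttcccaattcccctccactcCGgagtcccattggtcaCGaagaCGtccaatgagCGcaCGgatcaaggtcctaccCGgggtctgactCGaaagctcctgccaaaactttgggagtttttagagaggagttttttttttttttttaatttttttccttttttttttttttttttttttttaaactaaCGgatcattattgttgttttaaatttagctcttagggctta
Isl1: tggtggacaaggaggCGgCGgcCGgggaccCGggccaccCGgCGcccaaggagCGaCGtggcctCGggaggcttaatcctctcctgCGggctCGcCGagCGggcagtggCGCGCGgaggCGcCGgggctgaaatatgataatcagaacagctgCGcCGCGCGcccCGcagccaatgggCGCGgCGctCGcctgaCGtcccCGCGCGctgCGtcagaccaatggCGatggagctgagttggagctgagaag
Lhx1: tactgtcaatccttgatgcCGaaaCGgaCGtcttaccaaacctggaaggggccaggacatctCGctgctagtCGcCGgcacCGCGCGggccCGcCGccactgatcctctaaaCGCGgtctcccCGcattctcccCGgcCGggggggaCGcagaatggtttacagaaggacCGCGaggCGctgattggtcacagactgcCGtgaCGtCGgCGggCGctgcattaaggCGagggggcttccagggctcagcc

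All 13 peaks lay inside the RefSeq span of their gene, downstream of the start site. The distance from the nearest listed start site to the nearer edge of the peak ran from 341 bp (Lhx6) to 42116 bp (Lhx4). Widths ran from 367 to 1833 bp, with a median of 954 bp. No transcript structure was used, so the peaks could not be placed in an exon, an intron or a UTR.

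Of the 13 peaks, 12 passed the filter on low counts. The remaining 1, the 367 bp peak nearest the 3′ end of Lhx4, held 5, 7 and 4 reads at P1, against 27, 5 and 13 at P14, and was not tested. The lowest mean over the 6 libraries of any region in the table is 10 reads. At Hlx, at 3 of the Lhx6 peaks and at the untested Lhx4 peak, 5 of the 13, the mean at P1 alone was under 10, so these were in the table only through their P14 reads. No member had a mean under 10 at P14. Among the 12, 2 were called higher at P14 at an adjusted p under 0.05, the peak at Hlx and 1 of the 5 at Lhx6. Calls of this kind made up 0.105% of all tested peaks. None of the 12 was called lower, where 2.4% of all peaks were, and 0 had a lower value at an unadjusted p under 0.05 in edgeR, DESeq2 or limma-voom. Every P14 library lay above every P1 library in 4 of the 12, beside 4.86% of all peaks, and below in 0, beside 7.01%. The median log2 change was 0.19 over the 12 and 0.0 over all tested peaks, and 10 of the 12 had a change above 0, beside 49.5% of all peaks. Because the genes were picked with these changes known, nothing is read from the shares.

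The Hlx peak (ENSMUSG00000039377, chromosome 1, 184727159 to 184728438) is 1280 bp wide and ends 16 bp inside the 3′ border of the gene, which runs on the minus strand. In P1 replicates 1 to 3 it held 2, 12 and 3 reads, and in P14 replicates 1 to 3 it held 122, 35 and 25. In CPM this was 1.03, 5.43 and 1.38 against 17.0, 9.09 and 9.09. All P14 libraries stood above all P1 libraries, the lowest P14 value being 1.67 times the highest P1 value. The means were 2.61 ± 2.44 and 11.7 ± 4.56 CPM (SD, n = 3), 4.47-fold higher at P14 (log2 change 2.16, SE 0.49). P1 replicate 2 held 12 of the 17 P1 reads, and without it the log2 change was 3.29. Without P1 replicate 1 the change was 1.84, and without both libraries numbered 1 it was 1.41 (SE 0.46) and the peak was not called. Without P14 replicate 1 it was 1.77 (SE 0.57) and the peak was not called, nor was any other tested peak. The call was also lost on leaving out P1 replicate 3 (1.86), the second P14 library (2.34) or the third (2.32). Without the second P14 library, too, 0 of all peaks were called. On all 6 libraries, limma-voom gave 2.35 (SE 1.14) with no call, and DESeq2 gave 2.17 (SE 0.59) with a call.

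Lhx6 (ENSMUSG00000026890, chromosome 2, 36081950 to 36105992, minus strand) held 5 peaks, numbered here from its 5′ end. In CPM, peaks 1 to 4 had a higher mean at P14 than at P1, and peak 5, nearest the 3′ end, a lower one. In unscaled reads peak 5 was also higher at P14.

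Peak 3 (36090263 to 36091972) had the largest change. It held 5, 12 and 6 reads at P1, against 98, 52 and 29 at P14, or 2.58, 5.43 and 2.76 CPM against 13.7, 13.5 and 10.5. The ages did not overlap, and the P14 libraries differed little from each other once scaled. Means were 3.59 ± 1.6 and 12.6 ± 1.76 CPM (SD, n = 3), 3.48-fold higher at P14 (log2 change 1.80, SE 0.37). Leaving out P14 replicate 1 gave 1.75 (SE 0.43) with no call at this or any other tested peak. The call was also lost on leaving out P1 replicate 3 (1.64) and on leaving out P14 replicate 2 (1.77). Without P14 replicate 2, too, 0 of all peaks were called. Without P1 replicate 1 the change was 1.64, and without both libraries numbered 1 it was 1.57.

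Peak 2 (36093762 to 36094618) held 3, 4 and 6 reads at P1, against 50, 23 and 16 at P14. In CPM these were 1.55, 1.81 and 2.76 against 6.96, 5.97 and 5.81, again with no overlap (log2 change 1.60, SE 0.50). Peak 4 (36087031 to 36087849) held 2, 10 and 2 reads at P1, against 54, 18 and 16 at P14. Here the ages were barely apart, since P1 replicate 2 reached 4.52 CPM and the lowest P14 library 4.68 (log2 change 1.46, SE 0.57). The change at peak 4 was 2.61 without P1 replicate 2. Peak 1 (36101887 to 36103719), 341 bp downstream of the nearest start site, held 8, 25 and 9 reads at P1, against 94, 49 and 26 at P14. Its ages overlapped, with P1 replicate 2 at 11.3 CPM above P14 replicate 3 at 9.45 (log2 change 0.85, SE 0.37, or 1.53 without P1 replicate 2). Peaks 1, 2 and 4 were not called. Without P14 replicate 1 their changes were 0.78, 1.52 and 1.25. An interval of 513 bp between peaks 1 and 2 (36097339 to 36097851) is covered by no row and was not analysed here.

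Peak 5 (36083661 to 36084614) held 14, 19 and 12 reads at P1, against 49, 21 and 15 at P14, or 7.11 ± 1.54 and 5.91 ± 0.79 CPM (SD, n = 3). Its log2 change was -0.25 (SE 0.37), or -0.36 without P14 replicate 1, and the ages overlapped. Peaks 4 and 5 are separated by a stretch of 2416 bp with 2, 18 and 8 reads at P1, against 24, 22 and 15 at P14. Whether peak 5 differs in its change from peaks 1 to 4 was not tested.

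**Figure D1:**
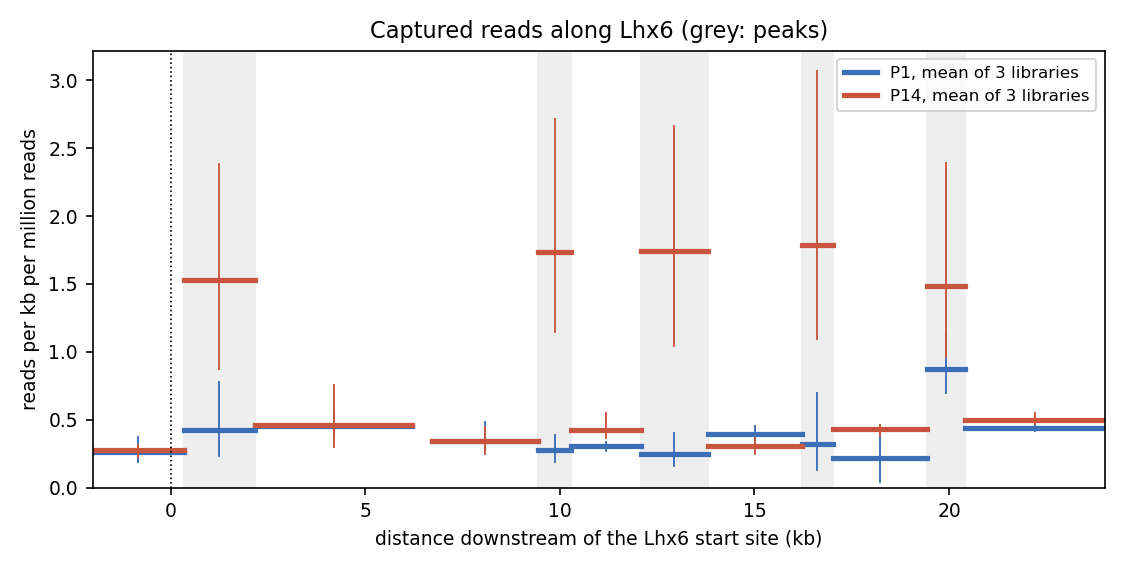
RPKM (reads per kb, relative to all reads of the library) for each region along Lhx6, against distance downstream of a start site in kb, with thick bars for means of 3 libraries, thin lines from the lowest to the highest library and peaks shaded. On this scale, which does not take out the larger share of reads in peaks at P14, the P14 mean is higher in all 5 peaks. The gap is smallest at peak 5, and in the stretches the ages lie closer together. Among the stretches, the means lie furthest apart between peaks 4 and 5. There P1 libraries run from 0.045 to 0.425 and P14 libraries from 0.381 to 0.462, with overlap.

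P1 replicate 2 was the highest P1 library, by CPM, at Hlx and at Lhx6 peaks 1, 3, 4 and 5. It was so in 6 of the 12 tested peaks and in 29.8% of all tested peaks.

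**Figure D2:**
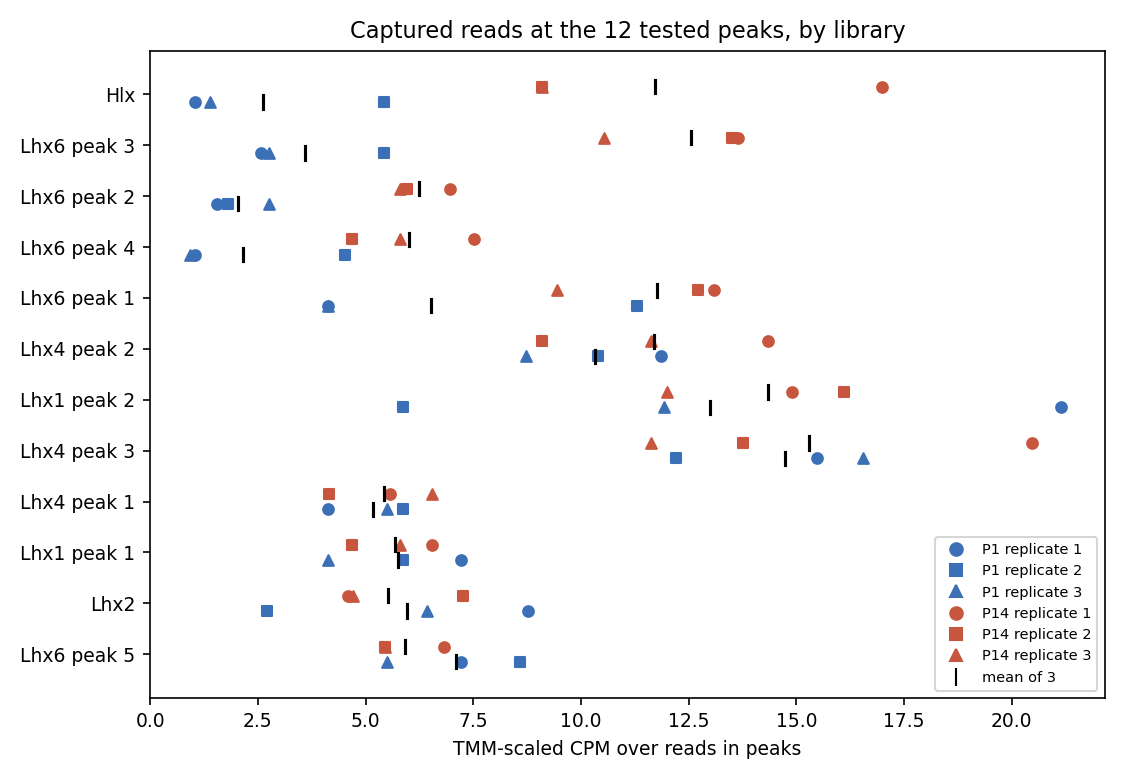
TMM-scaled CPM in each of the 6 libraries at the 12 tested peaks, from the highest log2 change at the top to the lowest, with black ticks at the mean of 3 libraries per age. P1 and P14 libraries are apart at Hlx and at Lhx6 peaks 3, 2 and 4, and overlap in the other 8.

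At Lhx4, Lhx1 and Lhx2 the ages did not stand apart. Lhx4 (ENSMUSG00000026468, chromosome 1, minus strand) held the densest member peak, Lhx4 peak 2 (155709726 to 155710652), with 23, 23 and 19 reads at P1, against 103, 35 and 32 at P14. It measured 10.3 ± 1.57 CPM at P1 and 11.7 ± 2.63 at P14 (SD, n = 3), a log2 change of 0.20 (SE 0.30). Lhx4 peak 3 (155704317 to 155705924) held 30, 27 and 36 reads against 147, 53 and 32, with a log2 change of 0.09 (SE 0.28). Lhx4 peak 1 (155713628 to 155714448), the tested peak with the lowest CPM of the gene, had a change of 0.05 (SE 0.42). In all 13 member peaks P14 replicate 1 held the most reads of the P14 libraries.

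Lhx1 (ENSMUSG00000018698, chromosome 11, minus strand) held a 3′ peak (84518974 to 84520618) with 41, 13 and 26 reads at P1, against 107, 62 and 33 at P14. Its P1 libraries spread from 5.88 to 21.2 CPM, wider than the 11.99 to 16.1 CPM of the P14 libraries. Its log2 change of 0.17 (SE 0.34) turned to -0.18 without P1 replicate 2 and was 0.71 without P1 replicate 1. The other Lhx1 peak, on the 5′ side (84521429 to 84522391), held 14, 13 and 9 reads against 47, 18 and 16, or 5.74 ± 1.55 and 5.68 ± 0.94 CPM (SD, n = 3). The Lhx2 peak (ENSMUSG00000000247, chromosome 2, 38365439 to 38366222) is shared with Gm13584, whose RefSeq span it also touches, and reads cannot be split between the genes. It held 17, 6 and 14 reads at P1, against 33, 28 and 13 at P14, with a log2 change of -0.10 (SE 0.45). Without P14 replicate 1 the direction turned at Lhx4 peak 3 (-0.18) and Lhx2 (0.06), and the changes were 0.04 and 0.02 at Lhx4 peaks 1 and 2, 0.17 at the 3′ peak of Lhx1 and -0.11 at its other peak.

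Compared per length, Hlx and Lhx6 peaks 1 to 4 were among the least dense tested peaks at P1 and further up the range at P14. Hlx measured 2.04 CPM per kb at P1, above 0.4% of all tested peaks, and 9.16 at P14, above 67.1%. Lhx6 peak 3 measured 2.10 CPM per kb at P1 (above 0.4% of peaks) and 7.35 at P14 (above 38.3%). Lhx6 peaks 2, 4 and 1 stood above 0.7%, 0.9% and 2.9% of peaks at P1, and above 37.3%, 38.0% and 22.5% at P14. Hlx and Lhx6 peaks 2, 3 and 4 were in the table only through their P14 reads. The genes were also picked with these changes known, so nothing is read from these ranks. Lhx6 peak 5 measured 7.45 ± 1.62 and 6.2 ± 0.83 CPM per kb (SD, n = 3), within the range of the other members. At P14 the order of levels per kb ran from Lhx4 peak 2 (12.6 ± 2.83), Lhx4 peak 3 (9.51 ± 2.87), Hlx (9.16 ± 3.56) and the 3′ peak of Lhx1 (8.71 ± 1.29) down to 5.9 ± 0.98 at the other Lhx1 peak (SD, n = 3). Neighbours in this order differed by less than the larger of their SDs, except Lhx4 peaks 2 and 3, and the 3′ peak of Lhx1 and the next in order, Lhx6 peak 3 (7.35 ± 1.03), where the gap was slightly wider. At P1 the same order ran from 11.1 ± 1.69 at Lhx4 peak 2 to 2.04 ± 1.91 at Hlx.

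**Figure D3:**
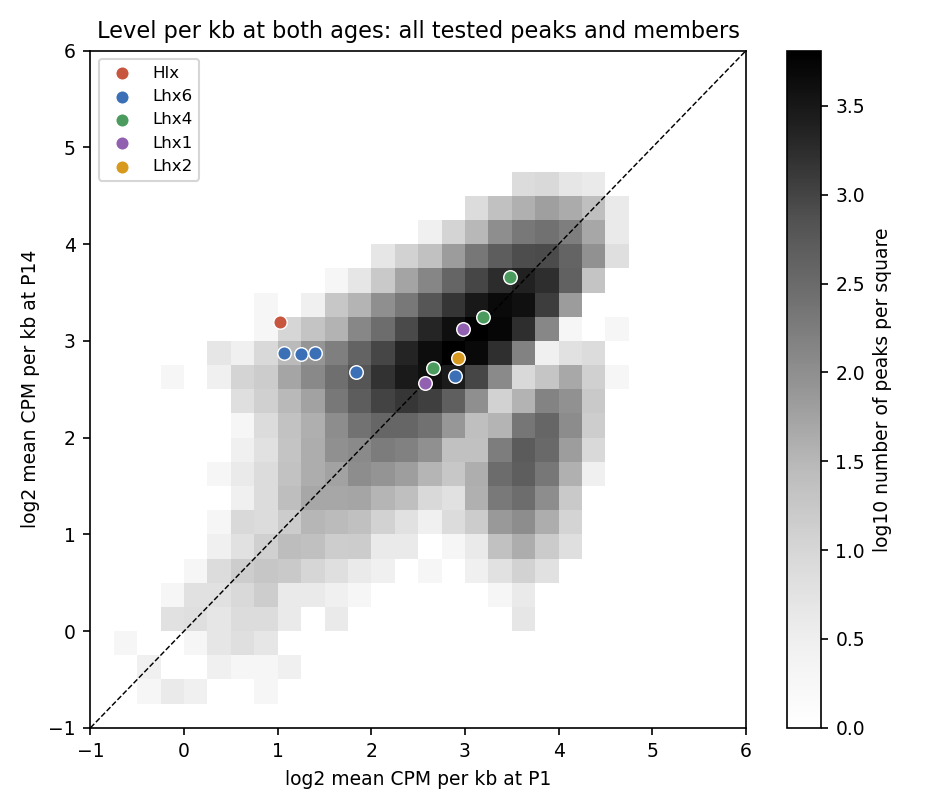
Mean CPM per kb at P14 against P1, both on log2 axes, with all 96761 tested peaks as grey squares shaded by their number and the 12 member peaks as coloured points. Hlx and 4 Lhx6 peaks lie above the diagonal at the low end of the P1 axis, and the other 7 lie near it. The genes were picked with these changes known, so nothing is read from these positions.

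A measure within each library, with no scaling between libraries, was had by dividing the read density of a peak by that of the stretches that adjoin it. At Hlx this ratio was 0.21, 1.77 and 0.37 at P1 and 9.07, 3.49 and 3.6 at P14. Thus 2 of 3 P1 libraries had fewer reads per base in the peak than beside it. Means at P1 were 0.75 at Lhx6 peak 3, 0.83 at peak 2, 0.97 at peak 4 and 1.35 at peak 1, and at P14 4.98, 4.49, 4.67 and 4.35. Over the 91246 tested peaks with an adjoining stretch the median was 1.98 at P1 and 3.58 at P14, and 2.37% had a mean under 1.5 at P1 with one above 4 at P14. These cut-offs lie close to the values of the peaks just named. Hlx and Lhx6 peaks 2, 3 and 4 were in the table only through their P14 reads, so nothing is read from this share.

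The other 7 tested members were denser than their flanks in every P1 library. The ratio was 3.6 ± 1.2 at Lhx4 peak 2, 2.75 ± 0.91 at Lhx2, 2.6 ± 1.13 at the 3′ peak of Lhx1 and 2.16 ± 0.49 at Lhx6 peak 5 (SD, n = 3). Ratios at both Lhx1 peaks rest on a single adjoining stretch. The interval of 810 bp between them (84520619 to 84521428) is covered by no row and was not analysed here. At the untested peak of Lhx4 it was 0.82, 1.91 and 1.16 at P1, and 3.63, 1.03 and 3.27 at P14. The mean ratio was higher at P14 in all 13 peaks, and every P14 library lay above every P1 library in 10 of the 13. That was also so for 43.1% of all tested peaks with a flank.

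**Figure D4:**
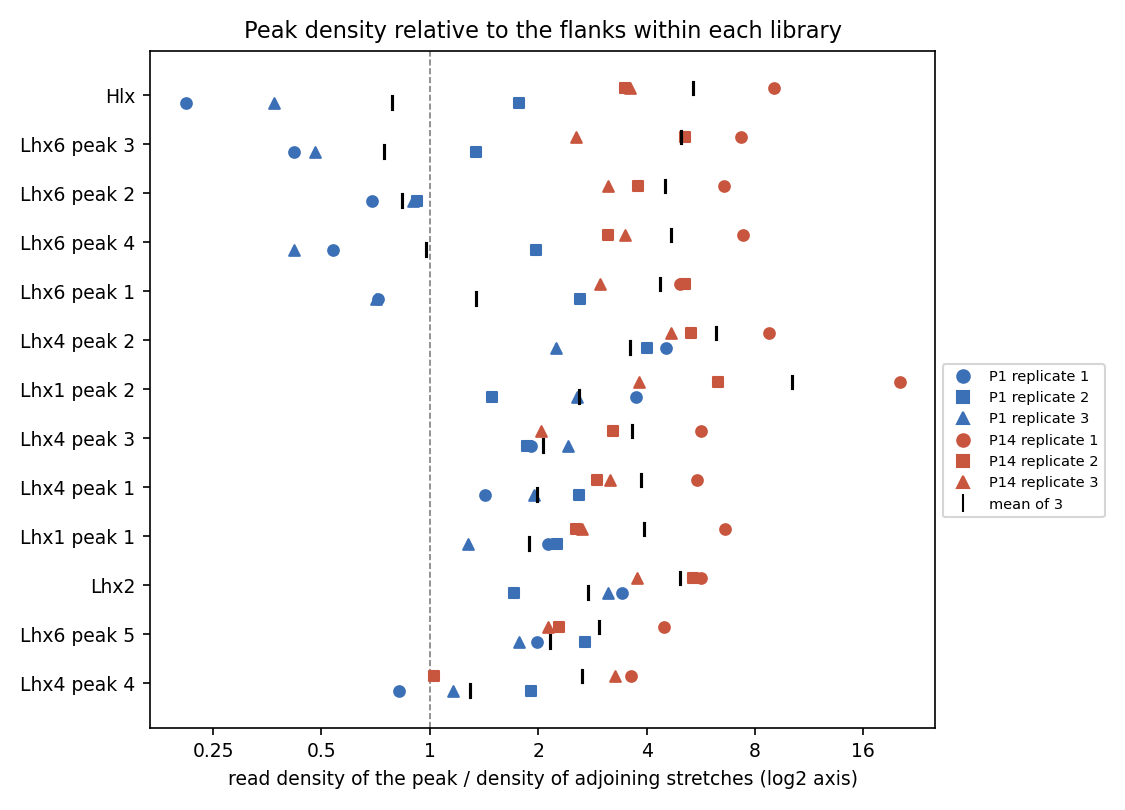
Read density of each of the 13 member peaks divided by that of the adjoining stretches, per library, on a log2 axis with a dashed line at 1 and black ticks at the mean of 3 libraries. At Hlx and Lhx6 peaks 1 to 4 at least 2 of 3 P1 libraries lie below 1 and all P14 libraries above 2.5.

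Where the table covers them, the 5 members without a region lay in stretches between peaks. The spans of Lhx3, Lhx5, Lhx9 and Isl2 each fell within a single stretch, of 20074, 26791, 43157 and 40775 bp. Isl1 (chromosome 13, 116298270 to 116309688) was covered by 2 stretches with an interval of 530 bp between them (116302899 to 116303428) that no row of the table covers and that was not analysed here. Reads per kb in the stretches at Isl1 were 5.69, 5.54 and 5.51 at P1 and 2.95, 4.82 and 4.93 at P14. P14 replicate 1 was thus the lowest there, at 0.34 of the density of that library's median stretch, while the other 5 libraries lay between 0.57 and 0.74. At Lhx5 the ratio to the median stretch ran from 0.47 to 0.7 and at Lhx3 from 0.53 to 0.88, below 1 in every library. At Lhx9 it ran from 0.83 to 0.98 and at Isl2 from 0.72 to 0.81.

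Peaks near the members that carry none of their names give the surroundings. Within 50 kb of the 10 gene spans there were 62 such peaks, of which 57 were tested, with a median log2 change of 0.02. edgeR's quasi-likelihood test called 0 of them, beside 0.105% called higher and 2.4% lower over all tested peaks. It had 2 at an unadjusted p under 0.05, and DESeq2 and limma-voom each called 1 lower. A peak without a gene name 2107 bp beyond the 3′ end of Hlx (184724048 to 184725036) held 4, 7 and 7 reads at P1, against 37, 17 and 14 at P14, with no overlap in CPM (log2 change 0.78, SE 0.49). On the other side of Hlx, 13553 bp from the gene, a peak held 11 reads in each P1 library and 61, 36 and 17 at P14 (0.63, SE 0.37). These were the largest changes near Hlx, and both were smaller than that of the Hlx peak. Around Lhx6 the 5 tested neighbours, at Ndufa8, Morn5 and Rbm18, ranged from -0.21 to 0.37. Lower values at P14 occurred near Isl1 and Lhx9. A peak 45058 bp from Isl1 (chromosome 13, 116354746 to 116355356) held 35, 10 and 8 reads at P1, against 2, 12 and 4 at P14 (log2 change -2.54, SE 0.71). The nearest peak to Lhx9, at 8736 bp (138815712 to 138816450), held 24, 12 and 17 against 8, 15 and 7 (-1.82, SE 0.52). In both the ages did not overlap in CPM. Neither was called by the quasi-likelihood test on all 6 libraries, whereas edgeR's likelihood ratio test called 2 of the 57 neighbours lower, as many as it had at an unadjusted p under 0.05.

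Related genes were described from lists chosen with earlier results known. Their counts stand beside the 0.105% of all tested peaks called higher and the 2.4% called lower by edgeR's quasi-likelihood test. The 3 other LIM homeobox genes, Lhx8, Lmx1a and Lmx1b, had 13 tested peaks with a median log2 change of -0.04, and 0 were called or had an unadjusted p under 0.05 in edgeR's quasi-likelihood or likelihood ratio test, DESeq2 or limma-voom. The largest change was at Lhx8, a regulator of forebrain cholinergic neurons, with 7, 5 and 6 reads at P1, against 20, 24 and 13 at P14 (0.64, SE 0.53). The 10 genes of LIM cofactors and LIM-only proteins, which bind LIM domains or compete for their cofactors, had 49 tested peaks with a median of -0.02. Of these 0 were called by edgeR's quasi-likelihood test, with 4 at an unadjusted p under 0.05. DESeq2 called 1 higher, and limma-voom and the likelihood ratio test each 1 higher and 1 lower. Ssbp2 and Ssbp3 encode partners of the LDB cofactors. A peak at Ssbp2 held 21, 10 and 24 reads at P1, against 4, 11 and 12 at P14 (-1.93, SE 0.58), and a peak at Ssbp3, shared with Gm12786, held 1, 5 and 1 against 30, 12 and 12 (1.79, SE 0.66).

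Of 17 partners and targets of Isl1 in the second heart field, 8 had a tested peak, 14 peaks in all, with a median of -0.05. None was called by edgeR's quasi-likelihood test or DESeq2, with 3 at an unadjusted p under 0.05 in each. limma-voom called 1 lower, and edgeR's likelihood ratio test 1 higher and 1 lower. Mef2c, a transcription factor of the same progenitors, had a peak with 34, 17 and 16 reads at P1, against 13, 20 and 9 at P14 (-1.71, SE 0.46). A peak at Ajuba, which encodes a LIM protein and is named Jub in the table, held 5, 8 and 14 against 71, 45 and 25 (1.26, SE 0.39). Among 42 homeobox genes of the class that Hlx belongs to, 14 had a tested peak, 20 peaks in all, with a median of 0.11. None was called by edgeR's quasi-likelihood or likelihood ratio test, DESeq2 or limma-voom, and 2, 2, 1 and 0 of them had an unadjusted p under 0.05. Msx1 had the largest change (3, 14 and 6 reads against 54, 33 and 21, log2 change 1.12, SE 0.46), and a peak at Hhex, a homeobox gene of liver and endothelium, held 12, 13 and 9 against 62, 43 and 21 (0.76, SE 0.36).

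Peaks at marker genes of the cell types of the ventricle were counted in the same fit. Cardiomyocyte markers had 10 of 65 tested peaks called lower, 9 at Ryr2 and 1 at Ttn, beside 2.4% of all tested peaks. Without P14 replicate 1, 0 were called, as over all peaks, with 16 then at an unadjusted p under 0.05. Scaled to the reads between peaks, 15 of the 65 were called higher, beside 9.58% of all peaks, and 1 lower. The median log2 change was then 0.97 beside 1.1 over all peaks. Endothelial (52 peaks), fibroblast (14), smooth muscle and pericyte (34), epicardial (11), blood (9) and neural (15) markers had 0 called by edgeR's quasi-likelihood test or DESeq2. Unadjusted p under 0.05 in edgeR were found for 3, 0, 1, 1, 0 and 2 of them, and limma-voom called 1 endothelial peak lower. The likelihood ratio test called 1 endothelial peak lower and 1 epicardial peak higher. Their median log2 changes lay between -0.21 in fibroblast and 0.13 in blood markers, with -0.17 in cardiomyocyte markers. Methylated DNA at these genes does not count cells, and the part of cell mix in the changes at Hlx and Lhx6 was not tested.

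By the distance between log2(CPM + 0.5) values over the 6 libraries, the gene-named peaks most like the Hlx peak were those at Ccdc13 (distance 0.81), Clec3b (0.83) and Chst5 (0.89). The Ccdc13 peak held 2, 15 and 5 reads at P1, against 105, 26 and 22 at P14. Those most like Lhx6 peak 3 lay at Zfp653 (0.56), Grik5 (0.82) and Notch4, shared with Gm20462 (0.83). The Zfp653 peak held 5, 14 and 7 reads against 122, 52 and 22. These were the closest of 66050 gene-named peaks, and of the 6 only the Zfp653 peak was called higher.

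The size of every change depended on how libraries were scaled to each other. Scaled to the reads between peaks, the median log2 change of all peaks was 1.1, and 9266 peaks (9.58%) were called higher and 111 lower, where scaling within peaks gave 102 and 2323. Among the members 5 were then called higher and 0 lower. These were Hlx (log2 change 3.36) and Lhx6 peaks 3, 2, 4 and 1 (2.91, 2.73, 2.60 and 1.97). Relative to the shift of 1.1 they remained the members with the largest changes. The other 7 tested members had changes from 0.90 to 1.37 under this scaling. Those at Lhx2 (0.99) and Lhx6 peak 5 (0.90) were above 0 with this common shift and below the 1.1 of the median peak. With the share of reads in peaks of each library as a covariate, the change was 1.37 at Hlx and 1.62 at Lhx6 peak 3, and 0 peaks of 96761 were called. This share was higher in every P14 library than in every P1 library, so the fit cannot separate it from age.

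**Figure D5:**
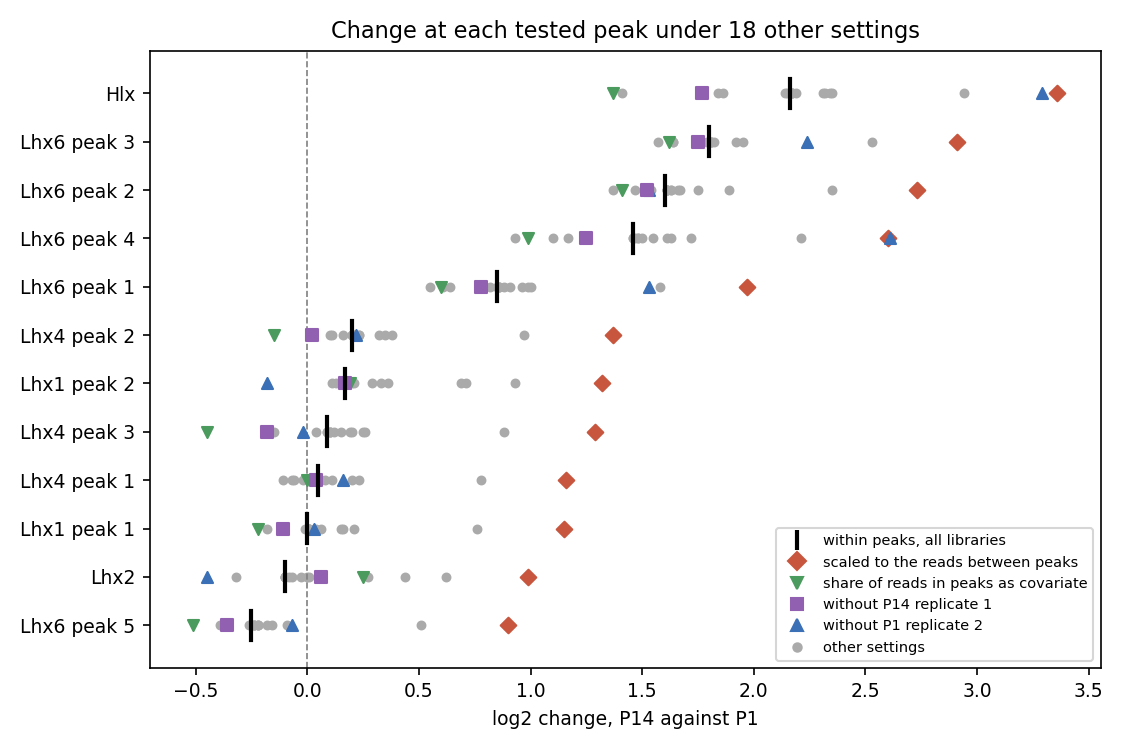
Log2 change of each tested member peak, P14 against P1, in the fit within peaks (black bar) and under 18 other settings (points, 4 of them coloured). Hlx and Lhx6 peaks 1 to 4 stay above 0 under all 18, and the other 7 lie nearer 0 in the fit within peaks. Without P1 replicate 1, though, the 3′ peak of Lhx1 (0.71) lies above Lhx6 peak 1 (0.64). The same holds without both libraries numbered 1 (0.69 against 0.55). Lhx6 peak 5 is above 0 in 2 settings, at 0.51 and 0.90.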

How the data were processed

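DNA methylation was measured by MBD-seq in 6 ventricle libraries, 3 at P1 and 3 at P14. The authors deposited whole-number read counts per region. BWA, MACS, bedtools and edgeR 3.2.4 are listed, with the builds GRCm38 and mm10, per the submitters' processing notes. The sources used here do not give peak-calling settings, duplicate handling or pooling. Of 221524 lines, 7567 repeat an interval for a further gene.

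The 101242 peaks and 112679 stretches were inferred here from shared borders, gene names and read density. Density alone settled 17529 single regions, and densities along a chain of touching regions settled a further 38650. Peaks passing edgeR's default filter over all regions were fitted with edgeR 4.0.16 (R 4.3.3) on the deposited counts, with TMM factors over reads in peaks, a single term for age, and p-values adjusted by Benjamini and Hochberg, called under 0.05. The standard error is the log2 change divided by the square root of F. The test was checked on simulated data. Alternatives used DESeq2 1.42.0, limma 3.58.1 and other scalings, filters and libraries.

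The members and lists were chosen with earlier results of these data known. All member regions are named, with reads for the 8 of largest change and the densest per gene at least. List genes are named if called, else from the 4 with the largest change, and up to 3 most alike peaks. Adjusted p-values rest on the spread between these libraries and on all the other peaks tested. Gene spans and promoters are from RefSeq, GRCm38.p6.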

Additional observations from a re-analysis of the deposited data

How the results depend on the processing

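The count of 2 member peaks called higher was the same without TMM factors, with median-ratio factors, over gene-named peaks only, without the filter on low counts and in DESeq2, and was 3 in the likelihood ratio test. It was 5 when scaled to the reads between peaks, 1 without both libraries numbered 1 (Lhx6 peak 3), and 0 over all regions, in limma-voom and with the share of reads in peaks as a covariate. Leaving out a single library gave 0 to 2, with 0 without P1 replicate 3, P14 replicate 1 or P14 replicate 2 and 1 without P14 replicate 3. The count called lower was 0 under all 18 alternatives. Where the count was 0, members with a higher value at an unadjusted p under 0.05 numbered 8 over all regions, 2 in limma-voom and 3 with the covariate, and 3, 3 and 4 without the libraries just named.

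Over all peaks, 102 higher and 2323 lower became 95 and 826 without TMM factors, 100 and 1349 over gene-named peaks, 104 and 4174 in limma-voom, 317 and 3786 in the likelihood ratio test, and 0 and 0 over all regions (48109 at an unadjusted p under 0.05), with the covariate (2237), without P14 replicate 1 (6389) and without P14 replicate 2 (7681). They were 77 and 707, 48 and 1482, and 21 and 1630 without P1 replicates 1 to 3, 39 and 687 without P14 replicate 3, and 44 and 362 without both libraries numbered 1. The cause was not tested.

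Replicate numbers are shared between the ages but did not pair the libraries: same-numbered deviations correlated at -0.05, -0.05 and 0.02, and in only 1 of 3 numbers, replicate 3, did both libraries correlate best with each other. With a replicate block 0 member peaks and 0 of all peaks were called (6768 at an unadjusted p under 0.05), with log2 changes of 2.14 at Hlx and 1.81 at Lhx6 peak 3. Changes ranged over the alternatives from 1.37 to 3.36 at Hlx and from 1.57 to 2.91 at Lhx6 peak 3. Depth limits the P1 values: the Hlx peak and Lhx6 peaks 2, 3 and 4 rest on 13 to 23 reads over 3 libraries.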
